A study of Mus musculus with 4 samples.

Results

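*Irx1*, *Irx2*, *Hhex* and *Etv1* are 4 transcription factor genes that are used as marks of the glucagon-producing α-cells and the somatostatin-producing δ-cells of the pancreatic islet. The 4 genes were found by their symbols among the 31053 genes of the count tables, and their levels were read in single islet cells exposed to cytokines. *Irx1* and *Irx2* marked the α-cells and *Hhex* the δ-cells in every library, whereas *Etv1* was high in α-, δ- and PP-cells alike and low in β-cells. With IL-1β in the culture, *Hhex* was lower in δ-cells and *Etv1* was lower in α-, δ- and PP-cells, and the gap in *Etv1* was wider beside IFN-γ in α-cells. In β-cells with little RNA of any other hormone, the low *Etv1* level was lower with IL-1β beside IFN-γ but not without it. *Irx1* in α-cells was highest in the untreated library, and the addition of IL-1β to IFN-γ went with no difference in *Irx1* or *Irx2* beyond counting error.

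The islet holds several hormone cell types that share a developmental origin and a core of pan-endocrine transcription factors, and each type adds factors of its own. *Irx1* and *Irx2* encode homeodomain proteins of the Iroquois family. *Hhex* encodes a homeodomain repressor that mature δ-cells need and that endothelial and blood lineages also use. *Etv1* encodes an ETS-domain activator of the PEA3 subfamily. IL-1β signals mainly through NF-κB and IFN-γ mainly through the JAK kinases, and both are cytokines of the inflamed islet.

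Islets of adult male C57BL/6 mice (C57BL6/J in the study's methods) were pooled, divided into 4 samples, exposed ex vivo for 6 hours, dissociated and loaded on a droplet device that counts unique molecular identifiers (UMIs) at the 3′ end of transcripts. The 4 samples were untreated islets, islets with IL-1β alone, islets with IFN-γ alone and islets with both. Each condition was 1 library of pooled mice, so no test between conditions was possible. Every interval given here is a 95% interval that covers counting error only (exact Poisson for levels, exact conditional for ratios, exact binomial for shares), and cells of 1 library were not treated as replicates. UMI counts at the 3′ end depend on the transcript end, so levels were compared between cells and not between genes. The comparisons with untreated islets share that library, whereas the comparison of both cytokines with IFN-γ alone shares no library with that of IL-1β alone with untreated islets. These 2 separate pairs of libraries both differ by IL-1β.

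A barcode entered if it had 200 to 4000 genes with a UMI and if mitochondrial genes gave no more than 12% of its UMIs. This left 1521 of the 3486 untreated barcodes, and for IL-1β, IFN-γ and both cytokines 2018 of 2911, 2122 of 3694 and 1810 of 2480, with depths of 15454, 7462.5, 9615 and 11123.5 UMIs in the median cell. The upper gene limit alone took away 843, 146, 345 and 222 barcodes in the same order, most from the deepest library. Since the untreated cells were the deepest, shares of cells with a UMI were also taken after thinning each cell to 4000 UMIs. Pairs of libraries shared between 0 and 2 cell barcodes. A cell was classed by its leading hormone (*Gcg* for α, *Sst* for δ, *Ppy* for PP, *Ins1* plus *Ins2* for β), which had to make up at least 5% of its UMIs and at least 2 times the next hormone. None of the 4 genes entered the classes.

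In the order untreated, IL-1β alone, IFN-γ alone and the combination, which is kept below wherever 4 values stand together, α-cells numbered 89, 344, 296 and 173. The δ-cells were fewer, with 37, 86, 128 and 55 in the same order. These δ-cells also held *Ppy* RNA, at a median of 1.65% of UMIs over all libraries. Where the leading hormone had to be at least 10 times the next, 109 of the 306 δ-cells were left, 6 of them untreated. The part of *Ppy* RNA in the δ-cell levels of the 4 genes was not tested. PP-cells numbered 31, 31, 63 and 51, and β-cells 1193, 1192, 1300 and 1304. Of the markers that the classes did not use, *Pdx1*, listed for β-cells, stood at 105 UMIs per 1000000 UMIs (CPM) in δ-cells and 87.4 in β-cells. *Lepr*, a δ-cell marker, was near 0 also in δ-cells, at 1.43 CPM. Over the 4 libraries *Ttr* stood at 6786 CPM in α-cells against 32.9 in δ-cells, *Ptprz1* at 121 in δ-cells against 5.66 in α-cells, and *Mafa* at 337 in β-cells against 1.93 in α-cells. Other listed markers set the classes apart less. *Pyy* stood at 87198 CPM in PP-cells and 53766 in δ-cells, and *Iapp* at 53301 in β-cells and 34894 in δ-cells. *Rbp4* stood at 4099 CPM in δ-cells and 1796 in α-cells, and *Cela1*, an acinar marker, at 276 in δ-cells. Of the 7 endothelial markers, *Cdh5* and *Kdr* were at 0 UMIs in both α- and δ-cells, and the most abundant were *Esam* in α-cells (4.97 CPM) and *Egfl7* in δ-cells (11.0 CPM). Of the 8 macrophage markers, *Ptprc*, *Csf1r* and *Adgre1* were at 0 UMIs in both, and *C1qa* was the most abundant, at 23.3 CPM in α-cells and 64.0 in δ-cells. Endothelial-like cells (131) and macrophage-like cells (145), each with at least 3 of their markers and no hormone class, served as comparison.

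The promoters of *Hhex* and *Etv1* are shown here because these are the 2 members whose levels were lower with IL-1β by more than counting error in both separate pairs of libraries when scaled by UMI totals. Each sequence runs 5′ to 3′ from 250 bases before to 50 bases after a RefSeq transcript start (GRCm38.p6, the assembly that mm10 names), on the plus strand. The *Hhex* window is chr19:37434591-37434890, at the start of a gene that GENCODE M21 places at chr19:37434810-37440731. The 2 *Etv1* windows, chr12:38779832-38780131 and chr12:38783461-38783760, belong to alternative starts within the gene at chr12:38779380-38870484. Capitals mark a match to the NF-κB motif on either strand.

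Hhex: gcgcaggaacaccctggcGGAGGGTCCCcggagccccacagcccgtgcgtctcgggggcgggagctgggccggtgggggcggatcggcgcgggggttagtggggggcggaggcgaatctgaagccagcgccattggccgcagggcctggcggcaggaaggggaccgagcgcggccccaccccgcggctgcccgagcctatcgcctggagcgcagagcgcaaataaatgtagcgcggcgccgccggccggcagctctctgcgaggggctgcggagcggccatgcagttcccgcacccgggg

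Etv1, first start: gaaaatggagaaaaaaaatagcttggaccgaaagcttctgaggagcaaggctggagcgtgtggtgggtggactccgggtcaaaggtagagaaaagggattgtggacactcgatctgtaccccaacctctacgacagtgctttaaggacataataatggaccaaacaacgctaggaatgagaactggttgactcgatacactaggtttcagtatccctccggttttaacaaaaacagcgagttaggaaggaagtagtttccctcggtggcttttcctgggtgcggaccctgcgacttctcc

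Etv1, second start: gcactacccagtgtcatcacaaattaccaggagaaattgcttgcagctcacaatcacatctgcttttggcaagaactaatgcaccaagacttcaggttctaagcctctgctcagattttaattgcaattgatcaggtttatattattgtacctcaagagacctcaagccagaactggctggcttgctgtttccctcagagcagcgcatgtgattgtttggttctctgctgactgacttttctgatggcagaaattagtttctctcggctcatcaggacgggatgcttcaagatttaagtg

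Of the 32851 promoter windows of this length, 8.46% hold an NF-κB match, 8.30% the motif TTCNNNGAA and 3.44% the interferon response core (GAAA, any 2 bases, GAAA), on either strand. The *Hhex* window held 1 NF-κB match and neither of the other motifs, and both *Etv1* windows held none of the 3. The windows differ in composition, since *Hhex* had 75.7% G and C, above 96.7% of all windows, and the *Etv1* windows had 48.7% and 44.0%, above 34.4% and 19.2% of them. A match is a run of letters and not a measured site, and its absence says only that the letters are not in these 300 bases.

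*Irx1* lies on chr13:71957921-71963723 (minus strand) and *Irx2* on chr13:72628820-72634198 (plus strand), both protein-coding. The gap between them is 665 kb, with 0 other protein-coding genes in it, and *Irx4* follows 626 kb beyond *Irx2*. Both genes were α-cell genes in these islets. α-cells made up 12.1% of the kept cells and held 87.4% of the 1073 *Irx1* UMIs and 72.8% of the 1578 *Irx2* UMIs.

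*Irx1* in α-cells stood at 182 CPM in untreated islets (155 to 212), 132 under IL-1β (118 to 148), 121 under IFN-γ (107 to 135) and 109 under both cytokines (93.3 to 127). The untreated library was the highest, and its interval lay above the other 3, whose intervals overlapped each other. In a wider class chosen after the values had been seen, with *Gcg* at 1% of UMIs or more and insulin and *Sst* each under 1%, *Irx1* stood at 164 CPM untreated (139 to 191) and 139 under IL-1β (124 to 155), a ratio of 0.849 (0.700 to 1.03), so the gap to IL-1β was then within counting error. By *Gcg* share of a cell's UMIs, the untreated and IL-1β levels were 67.9 (31.1 to 129) and 120 CPM (83.7 to 167) at 1 to 10%, 147 and 142 at 10 to 20%, and 201 (163 to 245) and 141 (113 to 174) at 20% or more, so a lower level with IL-1β was seen in the last group, where the intervals overlapped. After thinning to 4000 UMIs, 47.5% of untreated α-cells had an *Irx1* UMI (38 of 80, 36.2 to 59.0), against 36.2% under IL-1β (113 of 312, 30.9 to 41.8), 36.2% under IFN-γ (102 of 282, 30.6 to 42.1) and 32.7% under both (55 of 168, 25.7 to 40.4). Here the untreated interval overlapped the other 3. Before thinning the shares were 60.7%, 46.2%, 54.7% and 46.8%, and in β-cells, which should lack the gene, 0.641% of 4989 cells at a median of 11696 UMIs.

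Against untreated α-cells, the *Irx1* level was 0.726 times as high under IL-1β (0.599 to 0.883), 0.663 under IFN-γ (0.545 to 0.808) and 0.599 under both (0.480 to 0.747). Since these ratios share the untreated library, they are not 3 separate observations of a lower level. In the separate pair, both cytokines against IFN-γ alone, the ratio was 0.904 (0.743 to 1.1), which includes no difference. With edgeR's TMM factors in place of UMI totals its log2 value of -0.15 became 0.11, as all α-cell genes of this pair shifted by 0.25, and the place of *Irx1* among them did not change.

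*Irx2* in α-cells stood at 178 CPM in untreated islets (151 to 208), 174 under IL-1β (158 to 192), 148 under IFN-γ (133 to 165) and 139 under both (121 to 159). All 4 intervals overlapped. The ratio to untreated α-cells was 0.982 under IL-1β (0.816 to 1.19), 0.835 under IFN-γ (0.690 to 1.01) and 0.783 under both (0.635 to 0.967). Its sign with IL-1β was not fixed, since the log2 ratio of -0.03 became 0.12 without the upper limit of genes per cell. TMM factors, which shift all genes alike, also gave 0.12, and took the log2 ratio for both cytokines against untreated from -0.35 to -0.11 (-0.41 to 0.20). The thinned shares of α-cells with an *Irx2* UMI were 53.8%, 47.8%, 40.4% and 35.7% in the order untreated, IL-1β, IFN-γ and both, with intervals of 42.2 to 65.0 for the first and 28.5 to 43.5 for the last, which overlap narrowly.

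Outside α-cells the Iroquois genes parted. In PP-cells *Irx2* stood at 27.5 CPM in untreated islets, 57.3 under IL-1β, 39.0 under IFN-γ and 32.9 under both, all below the lowest α-cell value and all above the *Irx2* level of β-cells, which ran from 1.74 to 8.0 CPM. *Irx1* in PP-cells was at 2.50, 20.4, 6.78 and 7.74 CPM, from 14 UMIs in all. PP-cells with under 0.05% of UMIs from *Gcg* and from *Sst* kept an *Irx2* level of 25.8 CPM (17.6 to 36.4, 22 of 123 cells with a UMI), whereas *Irx1* there was 2.42 CPM (0.498 to 7.06, 3 UMIs). Thus *Irx2* in PP-cells was measured also where glucagon RNA was nearly absent. In δ-cells 2 *Irx1* UMIs and 12 *Irx2* UMIs were counted over 306 cells. In endothelial-like and macrophage-like cells 0 of each were counted, with intervals up to 4.38 and 3.32 CPM over all 4 libraries.

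The order of the *Irx2* levels was therefore α, PP, then δ and β, and δ- and β-cells could not be ordered, at 5.73 CPM (2.96 to 10.0) and 3.02 (2.60 to 3.48) over all libraries. For *Irx1* it was α (130 CPM, 121 to 138), then PP (7.99, 4.37 to 13.4), then δ (0.955, 0.116 to 3.45) and β (0.672, 0.482 to 0.912), which again could not be ordered. With the 2.42 CPM (0.498 to 7.06) of PP-cells low in *Gcg* and *Sst*, PP- and δ-cells could not be ordered either. The other Iroquois genes were not α-cell genes here. *Irx3*, *Irx4* and *Irx6* had 0 UMIs in α-, δ- and PP-cells of every library, and *Irx5* was listed in α-cells of the IFN-γ library alone, at 0.419 CPM from 1 UMI.

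**Figure D1:**
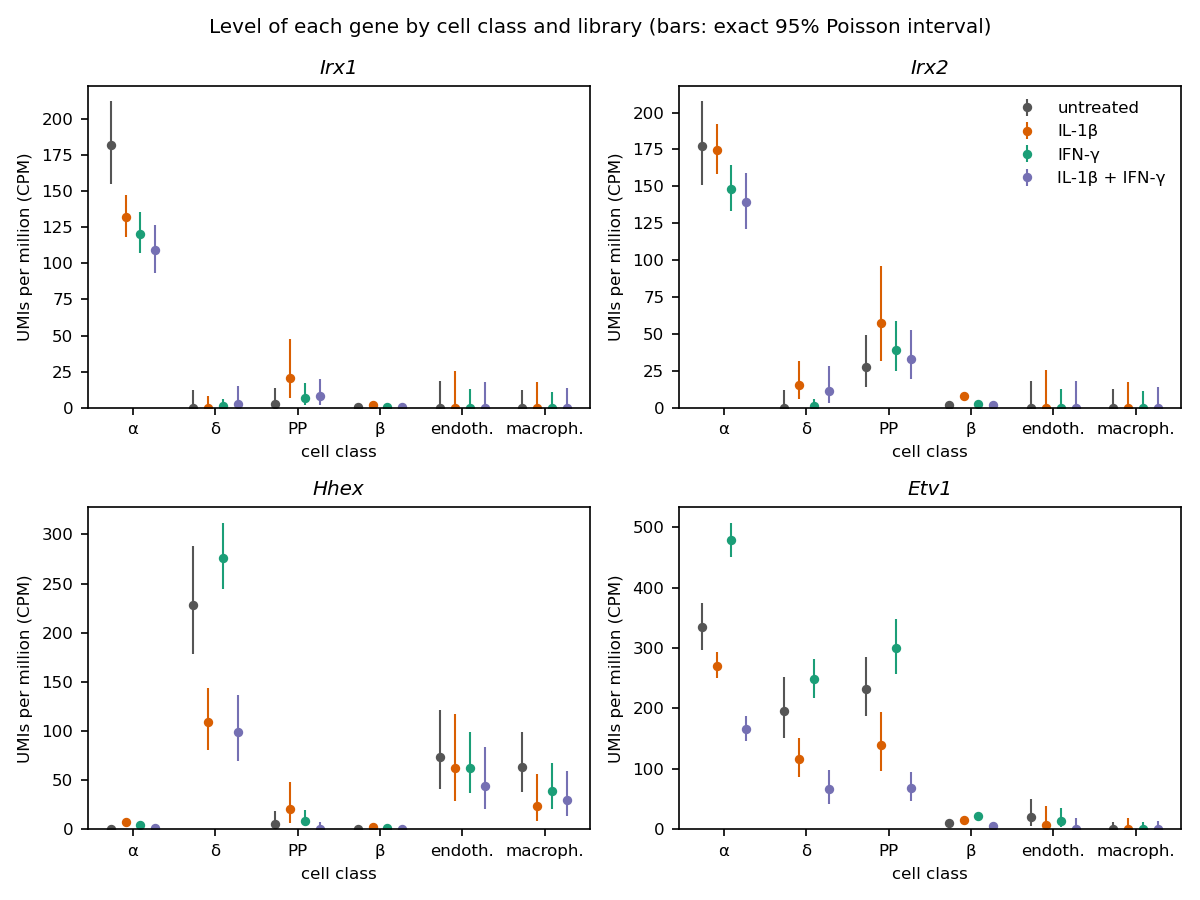
Level of the 4 genes (CPM, linear axes from 0) in 6 cell classes, with 1 point per library and exact 95% Poisson bars. *Irx1* and *Irx2* stand highest in α-cells, *Hhex* in δ-cells with a lower level in endothelial-like and macrophage-like cells, and *Etv1* in α-, δ- and PP-cells, where the library with both cytokines (purple) is the lowest.

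*Irx2* was found about as often in α-cells with an *Irx1* UMI as in those without one. Among thinned α-cells of all libraries, *Irx2* was found in 47.1% of the 308 cells with an *Irx1* UMI (41.4 to 52.8) and in 41.4% of the 534 without one (37.2 to 45.7). The intervals overlapped, and so they did within each of the 4 libraries. Unthinned, 334 of the 902 α-cells held a UMI of both genes, 355 of 1 of them, and the rest of neither. At 4000 UMIs per cell a transcript of this level is missed in many cells that hold it, so a cell without a UMI is not a cell without the gene.

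*Hhex* was a δ-cell gene in the hormone classes and also marked non-endocrine cells. Its level in δ-cells was 228 CPM in untreated islets (178 to 288), 109 under IL-1β (80.8 to 143), 276 under IFN-γ (244 to 312) and 98.5 under both cytokines (69.0 to 136). Both libraries with IL-1β were low and both without it were high, and no interval of the first pair met one of the second. The thinned share of δ-cells with an *Hhex* UMI ran the same way, at 51.6% untreated (16 of 31, 33.1 to 69.8), 34.2% under IL-1β (25 of 73, 23.5 to 46.3), 67.5% under IFN-γ (77 of 114, 58.1 to 76.0) and 31.9% under both (15 of 47, 19.1 to 47.1). The first 2 of these intervals overlapped and the last 2 did not. Before thinning, 62.2%, 41.9%, 81.2% and 38.2% of δ-cells had a UMI, against 0.661% of β-cells.

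Relative to untreated δ-cells, *Hhex* was 0.477 times as high with IL-1β (0.325 to 0.694), 1.21 times with IFN-γ (0.928 to 1.60) and 0.431 times with both (0.280 to 0.653). In the separate pair, both cytokines against IFN-γ alone, it was 0.356 times as high (0.244 to 0.506). Within both separate pairs the library with IL-1β thus had the lower *Hhex* level by more than the counting error. The direction for IFN-γ alone was not settled, since the log2 ratio of 0.28 became -0.17 where the leading hormone had to be at least 10 times the next.

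The δ-cell class is the smallest next to PP, and its *Sst* share moved with the library. The median *Sst* share of δ-cell UMIs was 11.8%, 8.56%, 10.3% and 9.88%, lowest with IL-1β alone, so the 5% limit did not take the same part of the cells in each. A wider class was therefore added after the values had been seen, in which *Sst* was at least 1% and insulin and *Gcg* were each under 1% of UMIs, giving 63, 167, 184 and 119 cells. There *Hhex* stood at 267, 122, 257 and 63.7 CPM, with ratios of 0.459 for IL-1β against untreated (0.354 to 0.593) and 0.248 for both against IFN-γ (0.181 to 0.334). The gap between libraries was thus as large or larger in the wider class. In *Sst* cells with 1 to 4% of *Sst*, *Hhex* was 221 CPM in untreated islets and 38.0 with both cytokines, at 4 to 8% it was 371 and 62.7, and at 8% or more 213 and 85.7.

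**Figure D2:**
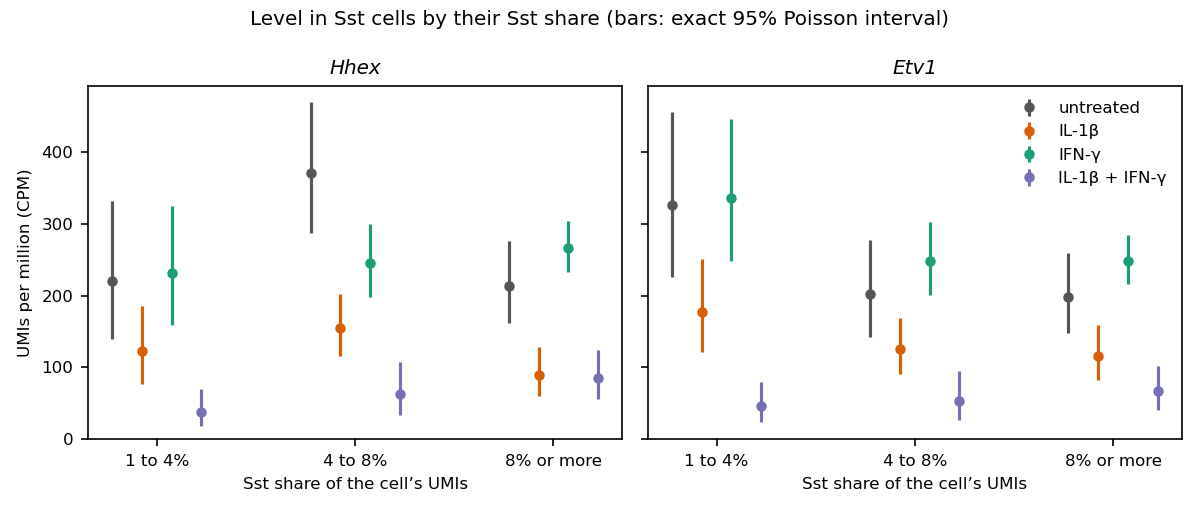
*Hhex* and *Etv1* levels (CPM, linear axis from 0) in *Sst* cells of the wider class, grouped by the *Sst* share of each cell's UMIs, with 1 point per library and exact 95% Poisson bars. In all 3 groups the 2 libraries with IL-1β (orange, purple) lie below the 2 without it for both genes.

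Hormone classes held part of the *Hhex* signal. Of the 964 *Hhex* UMIs of kept cells, 422 lay in δ-cells and 452 in cells with no hormone class. Of these last, 252 were in 266 cells with at least 1% *Sst*, 50 in 130 endothelial-like cells, 45 in macrophage-like cells, 90 in 96 other cells that held a UMI of *Krt19*, a keratin of duct cells, and 15 in the remaining 461 cells. In endothelial-like cells the level was 73.8 CPM untreated, 61.7 under IL-1β, 62.5 under IFN-γ and 44.0 under both, and in macrophage-like cells 63.2, 23.9, 39.1 and 29.8. All 8 ratios between libraries in these classes had intervals that included 1, from 5 to 19 UMIs per library, so a difference like that of δ-cells could not be read there, nor its absence.

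In α-cells *Hhex* had 0 UMIs in untreated islets, 17 under IL-1β, 11 under IFN-γ and 1 under both. These UMIs moved with somatostatin RNA in the same cells, since α-cells with under 0.05% *Sst* (829 of 902) held 1 of the 29. Likewise 123 of the 176 PP-cells had under 0.05% of *Gcg* and of *Sst*, and held 0 of the 12 *Hhex* UMIs of PP-cells. Of the 17 α-cells with an *Hhex* UMI, 14 also had one of *Irx1* or *Irx2*, and of the 184 δ-cells with an *Hhex* UMI, 6 did. Over all 902 α-cells, 689 held an *Irx1* or *Irx2* UMI, and of the 306 δ-cells 11 did.

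*Etv1* was the member without a single cell type. In untreated islets it stood at 334 CPM in α-cells (297 to 374), 232 in PP-cells (188 to 285) and 196 in δ-cells (150 to 252), and at 9.68 in β-cells (8.37 to 11.1). PP- and δ-cells did not differ beyond their intervals, α-cells were above both, and β-cells were far below. Macrophage-like cells held 0 *Etv1* UMIs in 145 cells, with an interval up to 3.32 CPM, and endothelial-like cells 9 UMIs in 131. *Etv1* therefore did not set PP-cells apart from α- and δ-cells, as its use as an α- and δ-cell mark would need.

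The α-cell level of *Etv1* was 334 CPM untreated, 271 under IL-1β (250 to 292), 479 under IFN-γ (451 to 507) and 165 under both (146 to 187). All 4 intervals were apart. The IFN-γ library was the highest and the library with both cytokines the lowest, with IL-1β between the latter and the untreated library. PP-cells kept this order, at 232, 139 (96.3 to 194), 300 (257 to 347) and 67.7 CPM (47.1 to 94.1), and δ-cells too, at 196, 115 (86.4 to 151), 248 (218 to 282) and 65.6 (42.1 to 97.7).

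In ratios, *Etv1* with IL-1β against untreated was 0.811 in α-cells (0.706 to 0.933), 0.598 in PP-cells (0.392 to 0.895) and 0.588 in δ-cells (0.399 to 0.864). The first of these intervals did not hold up with TMM factors, where it included no difference. In the separate pair, both cytokines against IFN-γ, it was 0.345 in α-cells (0.300 to 0.395), 0.226 in PP-cells (0.152 to 0.326) and 0.264 in δ-cells (0.166 to 0.403). The lower level with IL-1β was thus larger beside IFN-γ than without it in α-cells by more than counting error, while the δ-cell intervals overlapped narrowly. In PP-cells the intervals lay apart, but in those with under 0.05% of *Gcg* and of *Sst* the ratios were 0.426 (0.220 to 0.768, 14 UMIs with IL-1β) and 0.241 (0.156 to 0.361), which overlapped. IFN-γ alone against untreated was 1.43 in α-cells (1.26 to 1.63), 1.29 in PP-cells (0.998 to 1.68) and 1.27 in δ-cells (0.952 to 1.71), and only the first interval excluded 1. Both cytokines against untreated gave 0.495 in α-cells (0.417 to 0.586), 0.291 in PP-cells (0.192 to 0.434) and 0.335 in δ-cells (0.200 to 0.545).

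**Figure D3:**
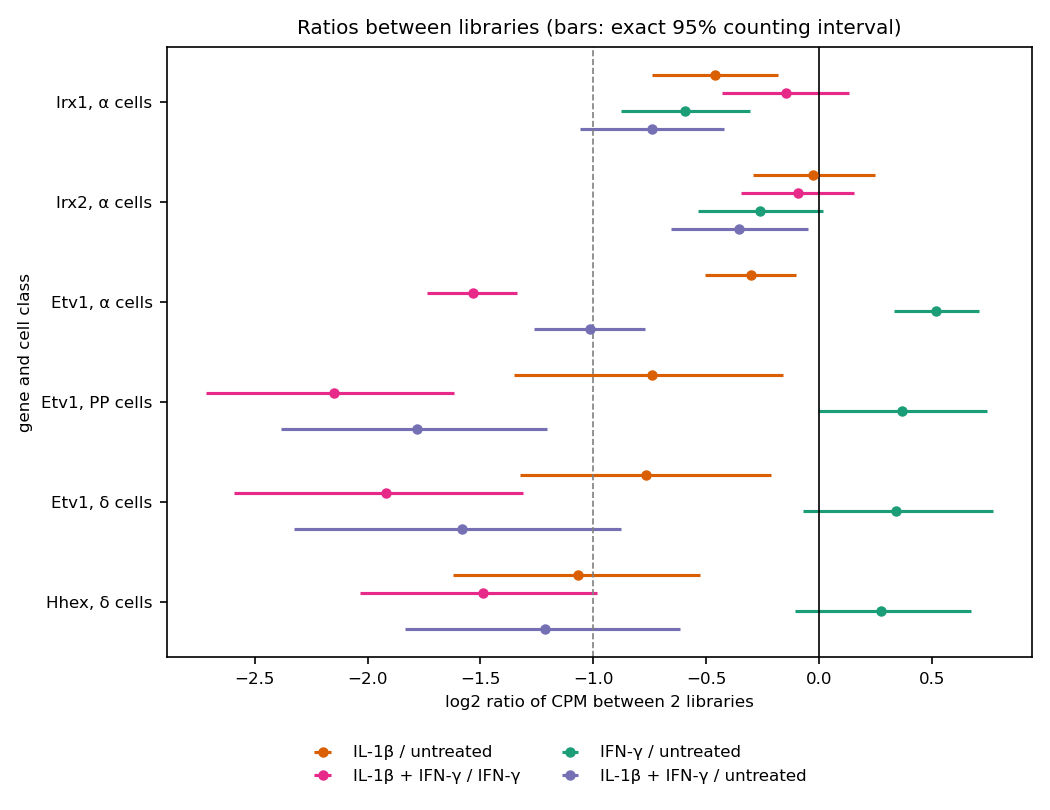
Log2 ratios of CPM between 2 libraries for each member in the classes that hold it, with exact 95% counting bars, a solid line at no difference and a dashed line at 2-fold lower. *Etv1* and *Hhex* lie left of 0 in both pairs that differ by IL-1β (orange, pink), *Etv1* lies further left beside IFN-γ, and *Irx1* and *Irx2* in the pink pair overlap 0.

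The share of cells with *Etv1* followed the order of the CPM in α- and PP-cells, in part within counting error. After thinning, an *Etv1* UMI was present in 68.8% of untreated α-cells (55 of 80, 57.4 to 78.7) and 61.2% under IL-1β (191 of 312, 55.6 to 66.7). It was present in 80.9% under IFN-γ (228 of 282, 75.8 to 85.3) and 42.9% under both (72 of 168, 35.3 to 50.7). The untreated interval overlapped those of IL-1β and IFN-γ, and that of both cytokines lay below all others. In α-cells of the IFN-γ library 178 of 296 cells held 3 or more *Etv1* UMIs, and in those with both cytokines 37 of 173, so cells with many *Etv1* UMIs were also fewer, at median depths of 8073 and 8624 UMIs. In δ-cells the thinned shares were 58.1%, 37.0%, 53.5% and 21.3%, and in PP-cells 57.1%, 41.4%, 70.7% and 19.1%. The lowest share was again in the library with both cytokines, at an interval that overlapped IL-1β alone in both classes. In PP-cells the untreated interval (37.2 to 75.5) overlapped those of IL-1β (23.5 to 61.1) and IFN-γ (57.3 to 81.9). In δ-cells the IFN-γ share was below the untreated one, unlike the CPM, and the log2 ratio of 0.34 between them was -0.01 in thinned cells.

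**Figure D4:**
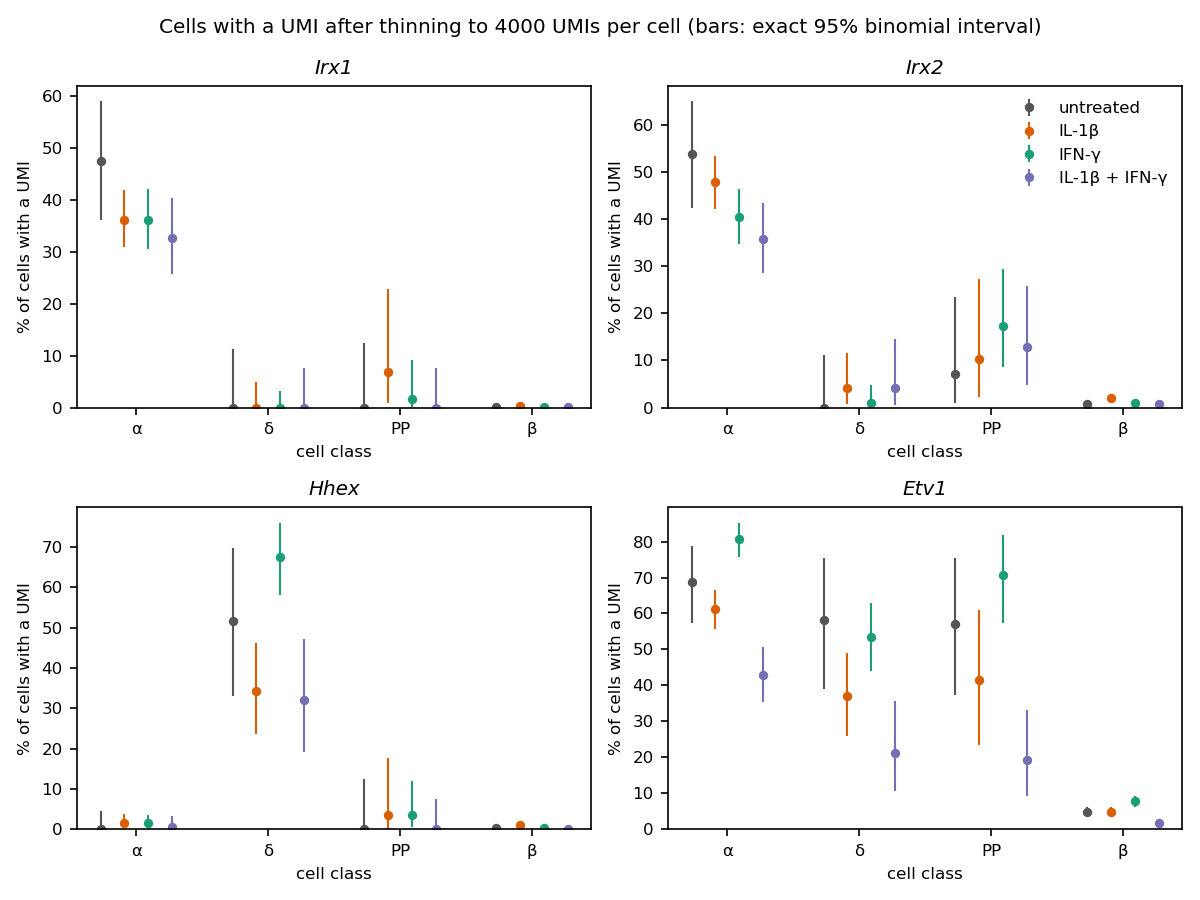
Percent of cells with a UMI of each gene after thinning every cell to 4000 UMIs, by class and library, with exact 95% binomial bars on linear axes from 0. For *Etv1* the IFN-γ library (green) is highest in α- and PP-cells and the library with both cytokines (purple) lowest in all 4 classes.

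In β-cells *Etv1* was low and still measurable, at 9.68 CPM untreated, 15.8 under IL-1β (13.5 to 18.4), 21.0 under IFN-γ (18.7 to 23.5) and 5.47 under both (4.39 to 6.74). Part of this came from β-cells that held a second hormone. In β-cells with under 0.05% of each other hormone (1110, 1053, 1172 and 1207 cells) it stood at 8.18, 8.49, 16.4 and 3.75 CPM, so the IL-1β library was level with untreated there (ratio 1.04, 0.780 to 1.37), while IFN-γ was at 2.0 (1.62 to 2.47) and both cytokines against IFN-γ at 0.229 (0.168 to 0.309). *Etv1* in β-cells was thus also highest with IFN-γ and lowest with both. *Irx1*, with 22 UMIs in all β-cells of the IL-1β library, had 1 in those without a second hormone.

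*Etv1* was found in similar shares of δ-cells with and without an *Hhex* UMI. Over thinned δ-cells of all libraries *Etv1* was read in 45.9% of the 133 cells with an *Hhex* UMI (37.2 to 54.7) and in 41.7% of the 132 without one (33.2 to 50.6). Within each library the share was the lower one in cells with *Hhex*, at 56.3% and 60.0% untreated, 36.0% and 37.5% with IL-1β, 53.2% and 54.1% with IFN-γ, and 13.3% and 25.0% with both, with overlapping intervals in each. The pooled order therefore did not hold within libraries. Cells were also divided by *Nos2*, the inducible nitric oxide synthase gene. With both cytokines *Etv1* was present in 1 of 23 thinned δ-cells with a *Nos2* UMI and 9 of 24 without one, at overlapping intervals of 0.110 to 21.9% and 18.8 to 59.4%, and its level was 10.9 CPM (0.275 to 60.6, 1 UMI) and 156 CPM (87.5 to 258, 15 UMIs), at intervals that lay apart. With IL-1β alone it was present in 7 of 16 and 20 of 57, at 125 CPM (54.0 to 246) and 114 CPM (74.5 to 167), so the gap was not seen there. *Hhex* in the same δ-cells with both cytokines was present in 9 of 23 with *Nos2* and 6 of 24 without, at 152 CPM (83.2 to 255) and 72.9 CPM (29.3 to 150), in the opposite order and with overlapping intervals. In α-cells with both cytokines *Irx2* was in 42.2% of 45 cells with *Nos2* and 33.3% of 123 without. There *Irx1* was in 24.4% and 35.8%, and *Etv1* in 37.8% and 44.7%. With IL-1β alone *Irx2* ran the other way, in 25.0% of 20 α-cells with *Nos2* and 49.3% of 292 without. All these share intervals overlapped.

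Beside all genes of the same cells, the members stood as follows. Among 5834 genes with a mean of at least 20 CPM in α-cells, 6.12% were at least 2-fold lower with IL-1β than untreated, 0.788% with IFN-γ, 9.34% with both, and 9.96% with both than with IFN-γ. The shares at least 2-fold higher were 7.54%, 4.63%, 9.32% and 5.85%. In δ-cells, among 6039 genes, 8.84%, 3.44%, 15.6% and 13.8% were at least 2-fold lower in the same comparisons, and 12.4%, 6.84%, 12.6% and 8.59% higher. With 1 library a group these shares are the background against which a fold is read, and no gene was called by a test.

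Of the 3 members that passed this level in α-cells, none was 2-fold lower with IL-1β alone or IFN-γ alone, and *Etv1* was in both comparisons of the library with both cytokines. With IL-1β against untreated, 21.9% of genes had a lower ratio than *Irx1*, 30.3% than *Etv1* and 48.0% than *Irx2*, which places all 3 inside the bulk. With both cytokines against untreated, 8.98% of genes were lower than *Etv1*, 16.8% than *Irx1* and 34.4% than *Irx2*. In both cytokines against IFN-γ only 3.03% of genes were lower than *Etv1*, while *Irx1* and *Irx2* were at 53.0% and 56.9%. The place of *Irx1* was most apart with IFN-γ alone, where 5.04% of genes were lower.

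In δ-cells *Hhex* and *Etv1* passed the level. *Hhex* was 2-fold lower in all 3 comparisons with an IL-1β library and *Etv1* in the 2 with both cytokines. For IL-1β against untreated *Hhex* was short of 2-fold as a mean over cells (-0.77) and with a mitochondrial limit of 20% (-0.99), and in δ-cells with under 0.05% *Gcg* its ratio was 0.529 (0.355 to 0.783). For both cytokines against untreated, TMM factors took *Hhex* in δ-cells to -0.998 and *Etv1* in α-cells to -0.77 on the log2 scale, both short of 2-fold, and as a mean over cells they were -0.92 and -0.98 on that scale. *Hhex* was also short at -0.96 after thinning, and *Etv1* at -0.97 without the upper gene limit. Of all δ-cell genes, 7.92% were lower than *Hhex* and 13.7% lower than *Etv1* with IL-1β, and 5.78% and 2.86% with both against IFN-γ. For both against untreated, 11.5% were lower than *Hhex* and 6.34% lower than *Etv1*. The median log2 ratio of all tested genes was itself -0.11 in α-cells and -0.14 in δ-cells for both cytokines against untreated, and -0.19 and -0.12 against IFN-γ. TMM factors moved these 4 medians to 0.13, 0.08, 0.06 and 8.3e-05. Since such a factor shifts every gene of a comparison alike, the place of a member among all genes is the same under either scale. On the TMM scale the log2 ratio of *Etv1* in α-cells for IL-1β against untreated was -0.16 (-0.36 to 0.04), which includes no difference, whereas *Etv1* in δ-cells (-0.72, -1.28 to -0.17) and *Hhex* (-1.02, -1.58 to -0.48) were still below 0.

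**Figure D5:**
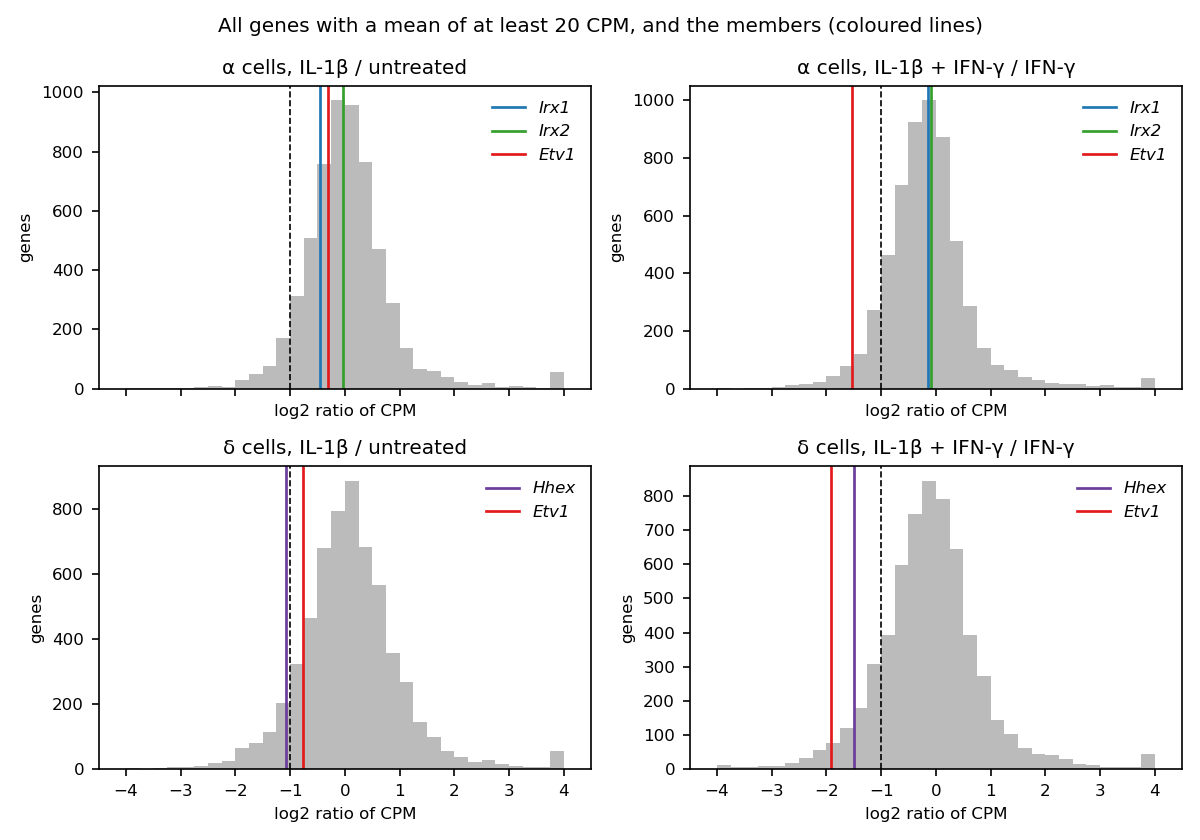
Histograms of the log2 ratio of CPM over all genes with a mean of at least 20 CPM in α-cells (top) and δ-cells (bottom) for the 2 separate pairs that differ by IL-1β, with the outermost bars collecting all genes beyond 3.75 either way and a dashed line at 2-fold lower. *Irx1* and *Irx2* lie within the bulk, whereas *Etv1* in the right panels and *Hhex* in δ-cells lie left of the dashed line. So do 9.96% of α-cell genes at top right, and 8.84% and 13.8% of δ-cell genes at bottom left and right.

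Within the PEA3 subfamily *Etv1* was the one read at a level that could be compared. *Etv4* had 1 UMI in the α-, δ- and PP-cells of all libraries, and *Etv5* stood at 0.419 to 3.19 CPM in α-cells and 4.35 to 9.65 in δ-cells. Of the β- and δ-cell factors, *Pdx1*, which δ-cells share with β-cells, was at 135 CPM in untreated δ-cells, 100.1 under IL-1β, 111 under IFN-γ and 71.1 under both, and its ratio for both against IFN-γ was 0.643 (0.402 to 0.995). *Nkx6-1* and *Mafa*, both β-cell transcription factors, were under the level in α- and δ-cells.

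More of the pan-endocrine factors were 2-fold lower in the pair beside IFN-γ, a difference between pairs that was not tested. In α-cells 8 of the 9 listed passed the level. With IL-1β against untreated 1 of the 8, *Myt1*, was 2-fold lower, beside 6.12% of all genes, and with both cytokines against untreated 3 were, beside 9.34%, namely *Nkx2-2* (0.309), *Myt1* (0.315) and *Rfx6* (0.366). With both against IFN-γ 4 were, beside 9.96%, namely *Nkx2-2* (0.229, 0.157 to 0.326), *Myt1* (0.254, 0.136 to 0.441), *Rfx6* (0.293, 0.172 to 0.475) and *Neurod1* (0.444, 0.371 to 0.529). These are factors of endocrine differentiation and upkeep. Those of the list not 2-fold lower there were *Isl1* (0.673), *Insm1* (0.774), *Pax6* (0.831) and *Foxa2* (1.1). The median log2 ratio over the 8 was 0.0015 in the first pair and -0.87 in the second, beside 0.0011 and -0.19 over all tested genes.

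In δ-cells 7 of the 9 passed, with 1 of them 2-fold lower with IL-1β against untreated (beside 8.84% of all genes), 2 with both against untreated (beside 15.6%) and 3 with both against IFN-γ (beside 13.8%). *Isl1*, a LIM-homeodomain factor of all islet endocrine cells, was at 617 CPM in untreated δ-cells, 346 under IL-1β, 481 under IFN-γ and 170 under both, with a ratio of 0.353 for both against IFN-γ (0.266 to 0.461). *Neurod1* (0.426) and *Rfx6* (0.360) were the others. The median log2 ratio over the 7 was 0.04 with IL-1β against untreated and -0.93 for both against IFN-γ. None of the list was 2-fold higher in either class in any comparison.

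The libraries carried the response to their cytokines in the same cells. *Nfkbia*, the inhibitor that NF-κB induces, was at 48.4 CPM in untreated α-cells, 555 under IL-1β, 49.0 under IFN-γ and 1137 under both, and in δ-cells at 61.1, 694, 70.9 and 1195. *Irf1*, an early IFN-γ target, was at 37.1, 55.1, 255 and 524 CPM in α-cells. Other measures moved with the libraries as well. The median insulin share of UMIs was 0.520%, 0.0897%, 0.211% and 0.103% in α-cells and 0.513%, 0.110%, 0.198% and 0.130% in δ-cells, highest untreated and lowest in the libraries with IL-1β. *Hspa1a*, a heat shock chaperone that handling can also induce, stood at 84.3, 188, 84.7 and 774 CPM in α-cells and 3.22, 157, 366 and 1335 in δ-cells, and macrophage markers summed to 52.9, 15.9, 23.9 and 51 CPM in α-cells and 96.5, 39.2, 67.8 and 109 in δ-cells, with *C1qa* the most abundant of the 8 and at most 3 of them with a UMI. Their part in the levels of the 4 genes was not tested.

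Over the 16 sums of 4 classes in 4 libraries, the genes whose log2(CPM + 1) was most like that of a member were read as a description, with points that share libraries and depth. The classes were themselves made from *Gcg*, *Sst*, *Ppy* and insulin UMIs. A gene high in a single class is thus bound to go with the hormone of that class, and these r values largely restate the class levels. *Gcg* itself (Pearson r = 0.97), *Higd1a* (0.97) and *Mamld1* (0.94) were most like *Irx1*, and *Oat* (0.98), *Id3* (0.92) and *Cald1* (0.92) most like *Irx2*. *Ly6h* (0.96), *Mest* (0.95), *Gap43* (0.92) and *Sst* (0.92) were most like *Hhex*. *Etv1* went with *Prdx4* (0.98), *Gria2* (0.96) and *Itm2b* (0.95), genes that were read in α-, δ- and PP-cells alike, as with *Gria2* at 132, 78.8 and 74.8 CPM against 6.74 in β-cells. Between members r was 0.91 for *Irx1* with *Irx2*, 0.57 and 0.58 for these with *Etv1*, 0.37 for *Hhex* with *Etv1* and -0.36 for *Hhex* with either Iroquois gene.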

How the data were processed

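UMI counts per gene and cell, as deposited, were made by the authors with Cell Ranger (matrix headers give software version 3.0.0) on mm10, without normalization. The reagent kit is version 2 in the labels and version 3 in the study's methods. Gene positions come from GENCODE M21 (30934 of 31053 identifiers matched). In Python 3.11.15 (scipy 1.17.1, numpy 2.4.6, pandas 2.3.3, matplotlib 3.10.9) counts were filtered, classed by hormone share, summed per class and library and scaled to 1000000 UMIs (CPM). No doublet caller was run, and cells with 2 hormones were limited by the margin over the next hormone. This margin left *Ppy* RNA in δ-cells. Intervals were exact, at 95%. They were tried on simulated Poisson and binomial counts, the models that they assume. These counts had no spread between cells, so the trial cannot show that the intervals cover such spread. The named genes were the 4 members, the listed families and factors, and for each member the 5 genes of highest correlation among those with at least 200 UMIs. Alternatives changed the cell limits, class limits, totals, thinning and scaling (edgeR 4.0.16 TMM factors). Members and lists were chosen with earlier results of these data known. Some listed genes and one gene most like *Hhex* are not reported here.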

Additional observations from a re-analysis of the deposited data

Results flagged for a closer look

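Of the 4 members, *Irx1*, *Hhex* and *Etv1* had opposite signs in β-cells and in the cells they mark for IL-1β against untreated, with intervals apart from 0 in both, and in each case the difference was not tested. The log2 ratio of *Irx1* was -0.46 in α-cells and 3.42 in β-cells, from 22 UMIs with IL-1β and 4 untreated. That of *Hhex* was -1.07 in δ-cells and 2.03 in β-cells, and that of *Etv1* -0.30 in α-cells, -0.77 in δ-cells and -0.74 in PP-cells against 0.71 in β-cells. *Irx2* was at -0.03 in α-cells, with an interval that includes 0, and at 2.20 in β-cells. In β-cells the glucagon and somatostatin RNA moved with these values, with *Gcg* at 320 CPM untreated and 2416 with IL-1β, and *Sst* at 76.1 and 719. In β-cells with under 0.05% of each other hormone the ratios were 0.532 for *Irx1* (0.0108 to 5.38), 1.79 for *Irx2* (0.863 to 3.68), 1.60 for *Hhex* (0.234 to 9.44) and 1.04 for *Etv1* (0.780 to 1.37), all including 1. The 4 libraries were 1 per condition, so no group was large enough to look for outlying samples.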

How the results depend on the processing

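The 20 ratios of *Irx1*, *Irx2* and *Etv1* in α-cells and of *Hhex* and *Etv1* in δ-cells were taken under 9 other settings, and of these 180 values 173 stayed within the counting interval of the reported value and 7 moved. With TMM factors *Irx2* in α-cells for both cytokines against IFN-γ became 0.16, and *Etv1* there became -0.77 against untreated and -1.28 against IFN-γ. The counting interval then included 0 for *Etv1* in α-cells for IL-1β against untreated (-0.36 to 0.04) and for *Irx2* for both against untreated (-0.41 to 0.20), and no longer for *Etv1* in δ-cells for IFN-γ against untreated (0.02 to 0.86). With the leading hormone at least 10 times the next, *Hhex* in δ-cells became -1.67 for IL-1β and -0.17 for IFN-γ against untreated, from 6 untreated cells. For both cytokines against untreated *Hhex* became -1.91 with a leading hormone of at least 2% and no margin, and -2.07 in the wider class chosen after seeing the data. Of the 20 ratios, none whose interval lay apart from 0 changed sign, and PP- and β-cell ratios were not taken under these settings. As a mean over cells or after thinning, *Hhex* for both against untreated was -0.92 and -0.96, and with TMM factors -0.998, all short of 2-fold. So were *Hhex* for IL-1β against untreated as a mean over cells (-0.77) and with a mitochondrial limit of 20% (-0.99), and *Etv1* in α-cells for both against untreated without the upper gene limit (-0.97) and as a mean over cells (-0.98).

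Of 64 background shares, 45 were within 1.5 times of the reported one. Among genes with a mean of at least 5 CPM, the shares 2-fold lower in α-cells were 10.3%, 2.70%, 15.5% and 15.8% (IL-1β, IFN-γ and both against untreated, both against IFN-γ) and in δ-cells 15.3% and 8.40% for IL-1β and IFN-γ, and 21.3% for both against IFN-γ. Among genes with a UMI in both libraries they were 16%, 8.41%, 18.9% and 18.3% in α-cells, and 15.7% and 12.8% in δ-cells for IL-1β and IFN-γ. With a 10-fold hormone margin the first 3 δ-cell shares were 17.2%, 13.3% and 24.2%. The IFN-γ share became 1.52% in α-cells without hormone genes in the totals, and 2.18% in α-cells and 8.76% in δ-cells after thinning.

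Leaving out a library was not possible with 1 per condition, and no paired analysis was possible because each group holds a single library. Doublets and the deeper untreated library were not modelled.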
